A study of Gallus gallus with 2 samples.

Results

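Splicing factor and RNA-binding-motif genes of the chick limb bud are described here. They were taken by symbol, as every gene in the deposited tables whose name begins with one of 7 prefixes (SRSF, RBM, HNRNP, SF3A, SF3B, PRPF or CLK) followed by a letter or digit. They number 73 of 16750 genes, and 70 had at least 1 FPKM (fragments per kilobase of transcript, normalised to library depth) in either library, of 10910 such genes in all. Pre-mRNA splicing is carried out by the spliceosome, a machine of small nuclear ribonucleoproteins (snRNPs) and many further proteins that removes introns and joins exons. The SRSF genes encode SR proteins, which bind exons through RNA recognition motifs and recruit the machinery through a tail rich in serine and arginine, and the CLK kinases phosphorylate that tail in the nucleus. HNRNP genes encode abundant nuclear RNA-binding proteins that often oppose SR proteins at a splice site, RBM genes encode a mixed set of RNA-binding-motif proteins, and the SF3A, SF3B and PRPF genes encode core parts of the spliceosome. Many of these genes are expressed in many tissues, though some RBM genes are known from muscle or germ cells. Which cells of the limb bud express them was not measured.

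RNA was sequenced from 2 libraries of chick limb bud at Hamburger-Hamilton stage 22, day 4 of incubation. Pieces of the buds had spent 4 h at 37 °C either with thalidomide at 40 µg/ml, the teratogenic drug whose known protein target is the ubiquitin ligase receptor cereblon, or with vehicle, 5% DMSO. Strain, sex, the number of embryos pooled, the share of wing and leg buds, and whether DMSO was also present with thalidomide are not given in the labels. If DMSO was absent with thalidomide, its effect and that of the drug cannot be told apart. With 1 library per treatment, no difference below has a replicate check and no p-value is given. The value after ± comes from the deposited confidence limits of both libraries and leaves out variation between samples. Ratios are thalidomide over vehicle with 1 added to each FPKM, which understates those of low genes. The values are per gene and of unknown strandedness, so isoforms are not separated and overlapping antisense transcripts cannot be told apart. In bulk tissue, fewer cells of a type and less RNA per cell cannot be told apart either.

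The deposited tables summed to 384280 FPKM with thalidomide and 426632 FPKM with vehicle, and the limits correspond to 23280002 and 23361629 inferred fragments, which may be too low where assignment was uncertain. Of 15 limb mesenchyme markers listed, 14 were matched and 12 reached 1 FPKM in either library, among them the homeobox gene PRRX1 (185 FPKM with thalidomide, against 217 FPKM with vehicle), while HOXA11 and HOXA13 are listed at 0 in both. TBX5 of the wing bud had 26.4 FPKM with thalidomide, against 22.5 FPKM with vehicle, and TBX4 of the leg bud had 18.5 FPKM with thalidomide, against 16.4 FPKM with vehicle. Markers of ectoderm, endothelium, muscle precursors, macrophages and neural cells were also present. Red blood cell markers summed to 372 FPKM with thalidomide and 278 FPKM with vehicle over 8 matched genes, 1 of them (HBZ) at 0 in both, and 6 of the 7 that passed the filter had a ratio above 0. The summed markers of the other 6 tissues were lower with thalidomide, from 12.1 against 13.6 FPKM for macrophages to 834 against 996 FPKM for limb mesenchyme. The summed FPKM of all genes kept was lower as well (a change of −9.95%). Each of these 6 lists also held genes above 0, among them 1 of 7 for endothelium, 1 of 4 for macrophages and 3 of 12 for limb mesenchyme. Mitochondrial genes held 11.3% of the FPKM total with thalidomide and 8.94% with vehicle. The part of these differences in the ratios below was not tested.

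Ratios differed from family to family. All 4 CLK kinase genes had ratios above 0 under each scaling tried, but every scaling other than the deposited one moved ratios up. All 13 HNRNP genes had ratios below 0 as deposited, though 6 of them lay above 0 once both libraries were brought to a common FPKM total. The SRSF and RBM families each held members on both sides, led by SRSF5 and RBM5 above 0. Only RBM5 passed 1.5-fold, and it did so upwards. That is 1 of 70 genes, against 0.953% of all 10910 genes kept, and 0 were 1.5-fold lower, against 0.972% of all genes. The nearest genes below the 1.5-fold limit of 0.58 on the log2 scale were RBM6 at 0.50 and CLK2 at 0.50, and the lowest member, HNRNPDL, had −0.40.

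The median log2 ratio of the 70 genes was −0.092, with quartiles of −0.20 and 0.021, beside −0.048 for all genes kept, with quartiles of −0.19 and 0.11. Ratios were above 0 in 20 splicing genes (28.6%, against 41% of all genes) and below 0 in 50 (71.4%, against 59%). Limits were separate between libraries for 11 higher genes (15.7%, against 15.5% of all genes) and 31 lower ones (44.3%, against 26.9%). The share of higher genes with separate intervals was near the background, and that of lower ones was above it over all abundances together but not among genes of like abundance. Together the 70 genes held 5049 FPKM with thalidomide and 5581 FPKM with vehicle, which is 1.31% and 1.31% of the library totals. Half-widths of the limits were 3.55% of the value with thalidomide and 3.86% with vehicle (medians over these genes).

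Many of these directions hold only under the scaling of the authors' FPKM. When each library was brought to a common total, the median of all genes moved up by 0.13 on the log2 scale. Then 50 splicing genes had ratios above 0 and 20 below 0, 30 had changed sign, and those with separate intervals were 26 higher and 14 lower. The matching shares over all genes are not given. In that setting the median was 0.049 for the splicing genes and 0.082 for all genes. Family medians are therefore also given relative to the median of all genes. That difference was 0.25 to 0.27 for CLK and −0.13 to −0.11 for HNRNP over the scalings. A scaling moves all genes nearly alike, so this difference could hardly change and its steadiness is no check.

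**Figure D1:**
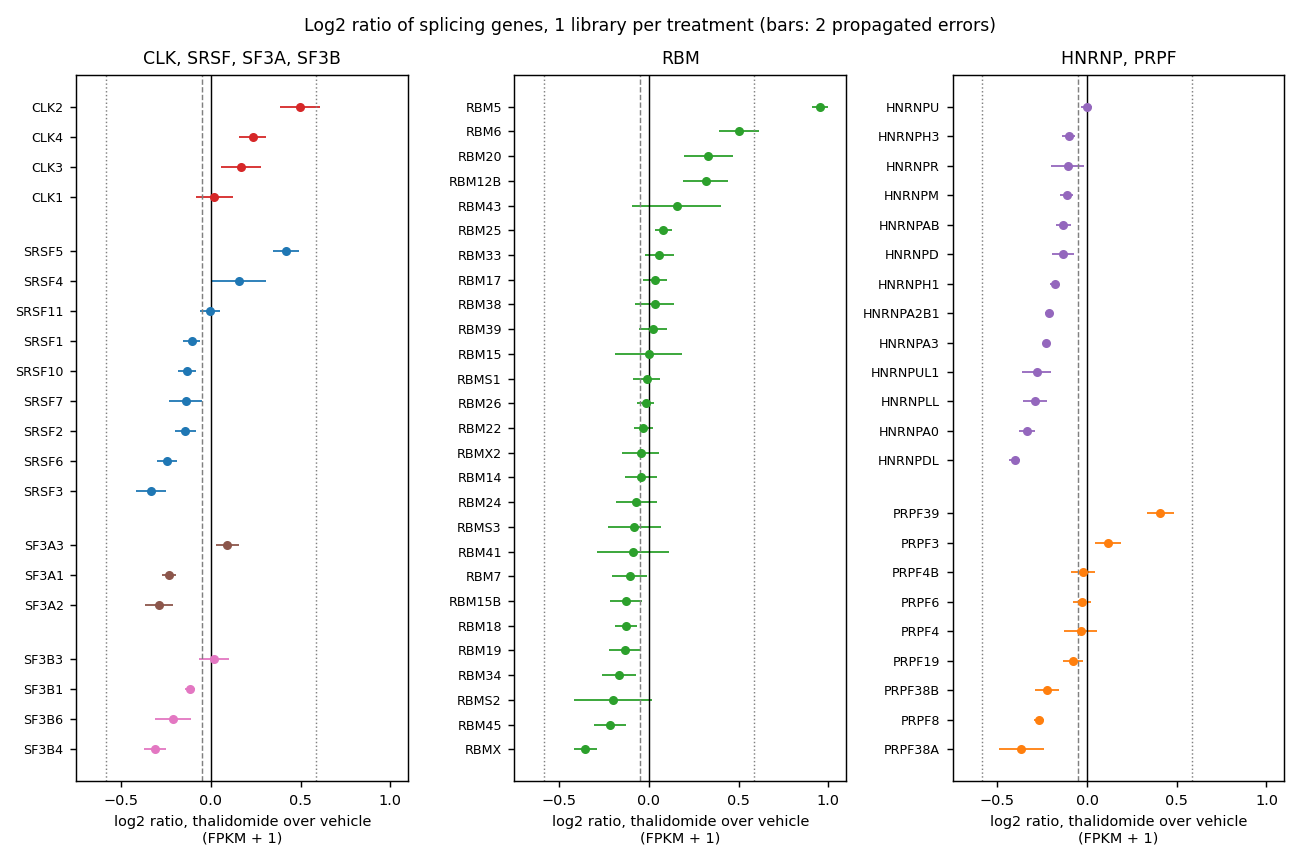
Log2 ratio of thalidomide over vehicle (x axis, FPKM + 1) for 69 of the 70 splicing genes, grouped by prefix, with bars of 2 propagated errors. The dashed line is the median of all genes and dotted lines mark 1.5-fold, which RBM5 alone passed. All 4 CLK genes lie above 0 and all 13 HNRNP genes below it on the deposited scale, while 6 HNRNP genes lie above 0 after rescaling to a common total.

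Abundance went with the ratio over the splicing genes together, as over all genes. Across the 70 splicing genes the rank correlation (Spearman's rho) between ratio and mean FPKM was −0.51, beside −0.26 across all 10910 genes. This is a description over genes of the same 2 libraries. Within families it was −0.65 for SRSF, −0.32 for PRPF, −0.29 for RBM and −0.0055 for HNRNP. With inferred fragments per FPKM in place of mean FPKM, rho was 0.34 across the splicing genes and 0.24 across all genes. By family that was 0.67 for SRSF, 0.57 for RBM, 0.35 for PRPF and −0.10 for HNRNP. The splicing genes are abundant, with a median mean of 41.9 FPKM against 9.29 FPKM over all genes. Among those at 100 FPKM or more, all 13 were lower with thalidomide as deposited (median −0.13), and so were 90.9% of all genes that abundant (median −0.24). From 30 to 100 FPKM, 25 of 30 were lower (median −0.12), beside 80.3% of all genes (−0.15). From 10 to 30 FPKM, 9 of 19 were lower (median 0.020, beside −0.053), and under 10 FPKM 3 of 8 were (0.16, beside 0.0017). In each range the median of the splicing genes lay above that of all genes. Genes that were lower with separate intervals made up 84.6% of the splicing genes at 100 FPKM or more, beside 84.4% of all genes that abundant. The same share was 53.3% beside 58.8% from 30 to 100 FPKM and 21.1% beside 29.6% from 10 to 30 FPKM. Under 10 FPKM, 0 of 8 splicing genes were lower with separate intervals, beside 12.2% of all genes.

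**Figure D2:**
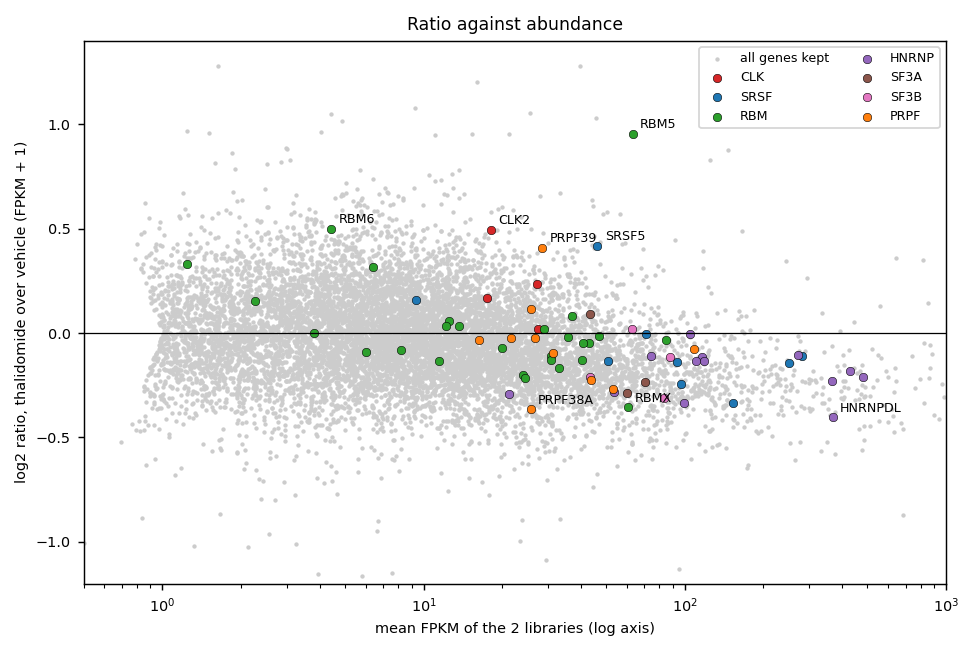
Log2 ratio of thalidomide over vehicle (y axis, FPKM + 1) against mean FPKM of the 2 libraries (x axis, log scale) for splicing genes by family, with all genes kept in grey. Of 10910 genes, 114 lie outside the axes. The grey cloud bends below 0 at high abundance, where most HNRNP genes lie, and RBM5 stands at 0.95.

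RBM5 and its relative RBM6 had the highest ratios of the 70 genes. Human RBM5 binds the early spliceosome and regulates exon choice in transcripts of apoptosis genes. Chick RBM5 (ENSGALG00000004626, chromosome 12, 3145246 to 3161321 in galGal4, the build named in the submitters' processing notes) had 83.8 FPKM (limits 82.4 to 85.3) with thalidomide, against 42.8 FPKM (limits 41.7 to 43.9) with vehicle. The intervals lay far apart (log2 ratio 0.95 ± 0.022). Among the 7453 genes that averaged at least 5 FPKM and span at least 300 bases, its ratio ranked 3 from the top. In the RefSeq gene table of the later assembly GRCg7b the gene next to PARP3 at this place carries the symbol RBM10, with RBM5 as an older name, so it is called RBM5 here only as the files do.

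RBM6 (chromosome 12, 2598043 to 2648508), which encodes a protein related to that of RBM5, had 5.36 FPKM (limits 5.04 to 5.68) with thalidomide, against 3.50 FPKM (limits 3.23 to 3.76) with vehicle (log2 ratio 0.50 ± 0.056). Adding 1 shrank this ratio, which was 0.62 from the FPKM alone, past 1.5-fold. Both genes lie on chromosome 12, 496737 bases apart, with 29 annotated genes starting between them. Of these, 20 passed the filter, 5 with ratios above 0 and 15 below, with a median of −0.14. The highest of them was USP4, a deubiquitinase, at 0.14, and the lowest was SEMA3G, a secreted guidance protein, at −0.43. PARP3, which lies directly before RBM5, had 2.72 FPKM with thalidomide, against 3.70 FPKM with vehicle (−0.34). The high ratios at both ends were thus not shared by the genes kept between.

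**Figure D3:**
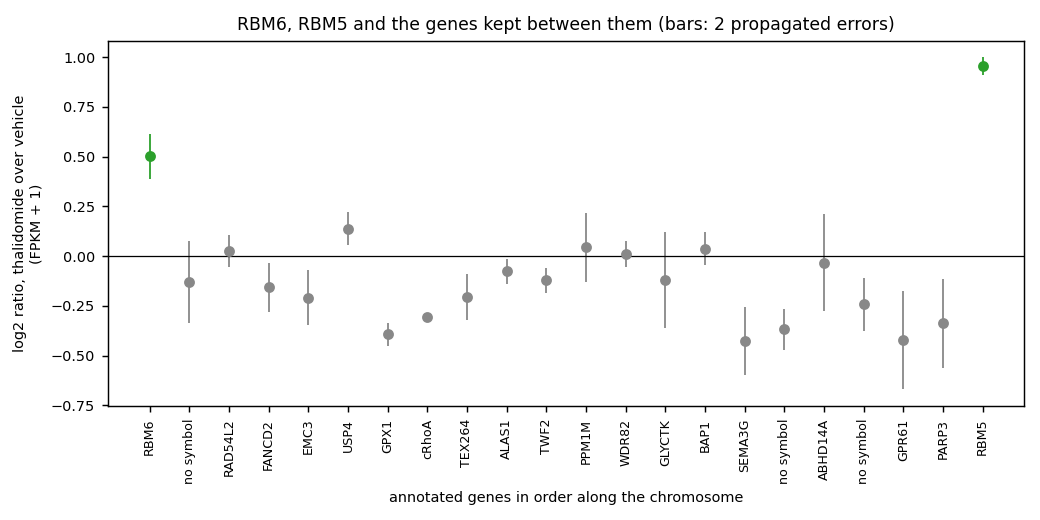
Log2 ratio of thalidomide over vehicle (y axis, FPKM + 1) for RBM6, RBM5 (green) and the 20 genes kept between them (grey), in chromosomal order (x axis), with bars of 2 propagated errors. RBM6 at 0.50 and RBM5 at 0.95 stand above the others, the highest of which is USP4 at 0.14.

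The 3 genes nearest to RBM5 in ratio, among genes averaging at least 5 FPKM, were an unnamed locus of 150 bases (ENSGALG00000028891, 0.96), the small nucleolar RNA SNORA22 (0.96) and NCOR1, a corepressor of nuclear receptors (0.95 ± 0.028). The first pair rested on 16 and 12 inferred fragments with thalidomide, so NCOR1 is the one measured as closely as RBM5. With 2 libraries this likeness is of 1 ratio only.

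Of 30 RBM genes, 27 passed the filter. RBM44, RBM46 and RBM47 did not: RBM47, an RNA-binding protein, had 0.220 FPKM with thalidomide and 0.269 FPKM with vehicle, and RBM44 and RBM46 are germ cell genes in mouse. RBM46 had 0.235 FPKM with thalidomide, from 38.9 inferred fragments, and 0.0473 FPKM with vehicle, from 7. RBM44 had 0.183 FPKM with thalidomide, from 6 inferred fragments, and 0.0333 FPKM with vehicle, from 1. Both were higher with thalidomide, at levels far under the filter. The RBM median was −0.031, which is 0.017 above that of all genes, with 10 genes higher and 17 lower (63%, beside 59% of all genes). Rescaled to a common total it was 0.12, with 23 higher, beside a median of 0.082 over all genes. Intervals were separate for 5 higher and 6 lower RBM genes (18.5% and 22.2%, near the 15.5% and 26.9% of all genes). Outside its extremes the family lay close to 0.

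After RBM5 and RBM6 came RBM20, the regulator of titin splicing in heart muscle, with 1.496 FPKM (limits 1.33 to 1.66) with thalidomide, against 0.985 FPKM (limits 0.847 to 1.12) with vehicle (0.33 ± 0.069). It passed the filter of 1 FPKM through the thalidomide library alone. The log2 ratio was 0.60 from the FPKM alone, past 1.5-fold, and 0.56 with 0.1 added in place of 1. RBM12B, an RNA-recognition-motif protein, had 7.25 FPKM (limits 6.78 to 7.71) with thalidomide, against 5.62 FPKM (limits 5.19 to 6.06) with vehicle (0.32 ± 0.062). RBM43 was at 0.15 ± 0.12 with overlapping intervals, from about 146 and 116 fragments. RBM25, which works with the U1 snRNP, had 38.0 FPKM with thalidomide, against 35.9 FPKM with vehicle (0.080 ± 0.024), with separate intervals. RBM39, a U2AF-like factor degraded by aryl sulfonamides through another cullin ligase receptor, had 29.2 FPKM with thalidomide, against 28.8 FPKM with vehicle (0.022 ± 0.039), and its intervals overlapped.

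At the lower end of the family was RBMX, also known as hnRNP G (chromosome 4, 4390057 to 4400409), with 52.9 FPKM (limits 51.2 to 54.7) with thalidomide, against 68.0 FPKM (limits 65.9 to 70.1) with vehicle (−0.35 ± 0.032). RBM45 had 22.6 FPKM with thalidomide, against 26.4 FPKM with vehicle (−0.22 ± 0.045). RBMS2, of a subfamily that binds single-stranded nucleic acid, was at −0.20 ± 0.11 from a gene model of 1022 bases on an unplaced scaffold, with overlapping intervals. RBM34 (−0.17), RBM19, a nucleolar protein of ribosome assembly (−0.13), RBM18 (−0.13) and RBM15B (−0.13) were also lower with separate intervals. RBM15B and RBM15 both guide the enzyme that methylates adenosine in mRNA, and RBM15 had 3.80 FPKM with thalidomide, against 3.80 FPKM with vehicle (−0.0014 ± 0.093). RBM22, the most abundant RBM gene and part of the catalytic spliceosome, had 84.1 FPKM with thalidomide, against 86.0 FPKM with vehicle (−0.031 ± 0.026).

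Several other RBM genes with known roles did not differ beyond their intervals. RBM24, which directs muscle splicing, had −0.071. RBM38, a target of p53 that binds mRNA of cell cycle genes, had 0.033, and RBM17, which acts at the splice acceptor, had 0.033. RBM14 of paraspeckles had −0.046, and RBM7 and RBM26, which hand nuclear RNA to the exosome, had −0.11 and −0.018. The remaining ratios ran from −0.089 for RBM41 and −0.082 for RBMS3 through RBMX2 (−0.045) and RBMS1 (−0.012) to 0.057 for RBM33.

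The 4 CLK genes, kinases of the SR proteins, were each higher in the thalidomide library. CLK2 (scaffold JH375217.1, 3645 to 11246) had 21.3 FPKM (limits 20.2 to 22.4) with thalidomide, against 14.8 FPKM (limits 13.9 to 15.8) with vehicle (0.50 ± 0.055). CLK4 had 29.6 FPKM (limits 28.5 to 30.6) with thalidomide, against 24.98 FPKM (limits 24.0 to 26.0) with vehicle (0.23 ± 0.037). CLK3 had 18.6 FPKM (limits 17.6 to 19.6) with thalidomide, against 16.4 FPKM (limits 15.5 to 17.4) with vehicle (0.17 ± 0.055). In these 3 genes the intervals were separate (75% of the family, beside 15.5% of all genes higher with separate intervals). CLK1 had 27.6 FPKM (limits 26.2 to 29.1) with thalidomide, against 27.2 FPKM (limits 25.8 to 28.7) with vehicle (0.020 ± 0.052), and its intervals overlapped. The family summed to 97.1 FPKM with thalidomide, against 83.5 FPKM with vehicle. Its median of 0.20 lay 0.25 above that of all genes, and it was 0.35 after rescaling to a common total. CLK transcripts are known to exist in part as nuclear forms that keep introns, and gene-level FPKM does not separate such forms from mature mRNA.

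The cytoplasmic SR kinases, which lie outside the name rule, were both higher too. SRPK1 had 22.9 FPKM with thalidomide, against 17.6 FPKM with vehicle (0.36 ± 0.042), and SRPK2 had 14.01 FPKM with thalidomide, against 11.3 FPKM with vehicle (0.29 ± 0.050). The transportin TNPO3, which brings phosphorylated SR proteins into the nucleus, was lower, with 33.1 FPKM with thalidomide, against 43.6 FPKM with vehicle (−0.39 ± 0.028). PRPF4B, another spliceosomal kinase and a member by name, had 21.4 FPKM with thalidomide, against 21.7 FPKM with vehicle (−0.024 ± 0.033), without a difference beyond its intervals.

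Of 9 SR protein mRNAs, 2 were higher and 7 lower with thalidomide as deposited, and 7 higher and 2 lower after rescaling to a common total. Over all genes 59% were below 0 as deposited, with 80.3% from 30 to 100 FPKM and 90.9% at 100 FPKM or more. After that rescaling the median of all genes was 0.082. SRSF5 (chromosome 5, 27151937 to 27156574) stood highest, with 53.1 FPKM (limits 51.3 to 54.9) with thalidomide, against 39.5 FPKM (limits 37.9 to 41.1) with vehicle (0.42 ± 0.037). SRSF4 had 9.94 FPKM (limits 9.16 to 10.7) with thalidomide, against 8.81 FPKM (limits 8.05 to 9.58) with vehicle (0.16 ± 0.076), with overlapping intervals. SRSF4 had the lowest FPKM of the family and SRSF1 the highest. SRSF11 was the same in both libraries within its limits (−0.0051 ± 0.028).

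The lowest was SRSF3 (chromosome 26, 1527549 to 1533439), the smallest SR protein, which also takes part in mRNA export, with 136 FPKM (limits 129.9 to 141) with thalidomide, against 171 FPKM (limits 164 to 178) with vehicle (−0.33 ± 0.042). SRSF6 had 88.2 FPKM (limits 85.8 to 90.7) with thalidomide, against 105 FPKM (limits 102 to 107) with vehicle (−0.24 ± 0.027). SRSF2, found in nuclear speckles, had 238 FPKM with thalidomide, against 263 FPKM with vehicle (−0.14 ± 0.030), and SRSF1, which acts in constitutive and alternative splicing, had 270.4 FPKM with thalidomide, against 292 FPKM with vehicle (−0.11 ± 0.023). SRSF7, which shuttles to the cytoplasm, had 88.8 FPKM with thalidomide, against 98.0 FPKM with vehicle (−0.14 ± 0.046), and SRSF10, a splicing repressor when dephosphorylated, had 48.6 FPKM with thalidomide, against 53.3 FPKM with vehicle (−0.13 ± 0.024). On the deposited scale all 6 of these lower genes had separate intervals, 66.7% of the family beside 26.9% of all genes. That share was 58.8% over all genes from 30 to 100 FPKM and 84.4% at 100 FPKM or more. The family median was −0.13, −0.084 relative to all genes, and 0.016 after rescaling to a common total. Many SR genes, SRSF3 and SRSF5 among them, have exons whose inclusion leads to decay of the transcript, and such isoforms are not separated in these values.

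**Figure D4:**
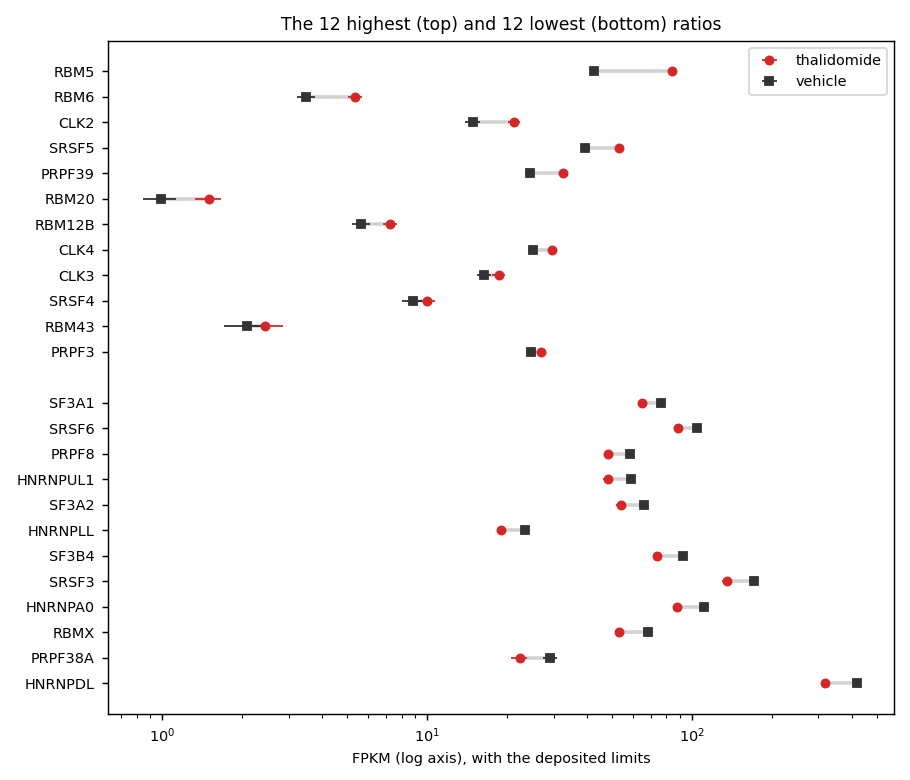
FPKM (x axis, log scale) in the thalidomide (red circles) and vehicle (black squares) libraries for the 12 splicing genes with the highest ratios (top) and the 12 with the lowest (bottom), with the deposited limits as bars. RBM5 shows the widest gap, at 83.8 against 42.8 FPKM. At the bottom, HNRNPLL at 19.0 against 23.5 FPKM is the least abundant and HNRNPDL at 317 against 419.7 FPKM the most.

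HNRNP genes had the highest summed FPKM of the families, and each had a ratio below 0 as deposited, against 7 of 13 after rescaling to a common total. They summed to 2424 FPKM with thalidomide, against 2803 FPKM with vehicle. Intervals were separate for 11 of 13 (84.6%), beside 26.9% lower with separate intervals over all genes and 84.4% over those at 100 FPKM or more. The median was −0.18, −0.13 relative to all genes. It was −0.031 after rescaling to a common total and 0.0077 when mitochondrial and haemoglobin genes were left out of that total. All genes at 100 FPKM or more had a median of −0.24. Of the HNRNP genes that abundant, only HNRNPDL (−0.40) lay below that median. The others ran from −0.23 for HNRNPA3 to −0.0024 for HNRNPU. The remaining HNRNP genes were less abundant. HNRNPA0 (−0.34), HNRNPUL1 (−0.28) and HNRNPR (−0.11) averaged 30 to 100 FPKM, where the median of all genes was −0.15. HNRNPLL (−0.29) averaged 10 to 30 FPKM, where that median was −0.053.

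HNRNPDL (chromosome 4, 45820577 to 45824905) was lowest, with 317 FPKM (limits 312 to 322) with thalidomide, against 419.7 FPKM (limits 414 to 426) with vehicle (−0.40 ± 0.015). Its paralog HNRNPD, also called AUF1, which binds AU-rich mRNA and lies 3152 bases away, had 113 FPKM with thalidomide, against 124 FPKM with vehicle (−0.13 ± 0.030). HNRNPA0, which also binds AU-rich mRNA, had 87.4 FPKM with thalidomide, against 111 FPKM with vehicle (−0.34 ± 0.022). HNRNPLL, known for CD45 exon skipping in lymphocytes, had 19.0 FPKM with thalidomide, against 23.5 FPKM with vehicle (−0.29 ± 0.033), and it lies 31023 bases from SRSF7. HNRNPUL1, on an unplaced scaffold, had 48.1 FPKM with thalidomide, against 58.7 FPKM with vehicle (−0.28 ± 0.041).

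The most abundant, HNRNPA2B1, had 446 FPKM with thalidomide, against 516 FPKM with vehicle (−0.21 ± 0.011). HNRNPH1, which binds runs of guanines, had 401 FPKM with thalidomide, against 455 FPKM with vehicle (−0.18 ± 0.012), and HNRNPA3 had 338 FPKM with thalidomide, against 396 FPKM with vehicle (−0.23 ± 0.009). HNRNPAB (−0.13), HNRNPM (−0.11) and HNRNPH3 (−0.10) were lower with separate intervals, and HNRNPR (−0.11 ± 0.047) with overlapping ones. HNRNPU, a nuclear scaffold protein, had 104 FPKM (limits 103 to 106) with thalidomide, against 105 FPKM (limits 103 to 106) with vehicle (−0.0024 ± 0.014), with overlapping intervals. The files also list HNRPK, which the name rule leaves out and which RefSeq lists under the symbol HNRNPKL, at −0.12. Other hnRNP-type genes outside the rule went both ways. SYNCRIP had −0.28. PTBP1 had 99.5 FPKM with thalidomide, against 94.0 FPKM with vehicle (0.082 ± 0.014), with separate intervals, and RALY had 0.043 with overlapping ones.

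SF3A and SF3B proteins sit in the U2 snRNP and bind the branch point of the intron. In SF3A, SF3A1 had 64.7 FPKM with thalidomide, against 76.1 FPKM with vehicle (−0.23 ± 0.020) and SF3A2 had 53.8 FPKM with thalidomide, against 66.0 FPKM with vehicle (−0.29 ± 0.039), both lower with separate intervals. SF3A3 had 45.0 FPKM with thalidomide, against 42.1 FPKM with vehicle (0.092 ± 0.033), with overlapping ones. Of the SF3B genes, SF3B4, which holds RNA upstream of the branch point, was lowest, with 74.1 FPKM with thalidomide, against 92.1 FPKM with vehicle (−0.31 ± 0.032). SF3B6, which contacts the branch point adenosine, followed, with 40.1 FPKM with thalidomide, against 46.6 FPKM with vehicle (−0.21 ± 0.049). SF3B1, the largest subunit and a frequent target of mutation in human blood disorders, had 84.5 FPKM with thalidomide, against 91.6 FPKM with vehicle (−0.11 ± 0.014). SF3B3 had 63.3 FPKM with thalidomide, against 62.5 FPKM with vehicle (0.017 ± 0.042), with overlapping intervals.

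In each complex 1 subunit thus lay above 0 without separate intervals, SF3A3 and SF3B3, while the others were lower as deposited. Relative to all genes the medians were −0.18 for SF3A and −0.12 for SF3B. All of these genes averaged 30 to 100 FPKM. In that range 80.3% of all genes were below 0 and 58.8% were lower with separate intervals. Their median there was −0.15, beside −0.23 for SF3A and −0.16 for SF3B. After rescaling to a common total the SF3A median was −0.084 and the SF3B median −0.015. PHF5A, a small subunit of the same complex outside the name rule, had 36.5 FPKM with thalidomide, against 49.1 FPKM with vehicle (−0.42 ± 0.088).

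PRPF genes encode spliceosome proteins named after yeast pre-mRNA processing mutants. Of 10, 2 were higher and 8 lower with thalidomide as deposited, and 7 higher and 3 lower after rescaling to a common total. Over all genes 59% were below 0 as deposited, with 60.9% from 10 to 30 FPKM and 80.3% from 30 to 100 FPKM. After that rescaling the median of all genes was 0.082. PRPF39 (chromosome 5, 58689881 to 58708951), a U1 snRNP-associated factor, had 32.7 FPKM (limits 31.5 to 33.8) with thalidomide, against 24.4 FPKM (limits 23.4 to 25.4) with vehicle (0.41 ± 0.037). PRPF3 of the U4/U6 snRNP had 26.9 FPKM with thalidomide, against 24.8 FPKM with vehicle (0.12 ± 0.035). Both had separate intervals. The lowest was PRPF38A, which enters at spliceosome activation, with 22.3 FPKM (limits 20.8 to 23.8) with thalidomide, against 29.0 FPKM (limits 27.3 to 30.8) with vehicle (−0.37 ± 0.063).

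PRPF8, the scaffold of the catalytic centre, had 48.3 FPKM with thalidomide, against 58.4 FPKM with vehicle (−0.27 ± 0.014), and PRPF38B had 40.4 FPKM with thalidomide, against 47.4 FPKM with vehicle (−0.22 ± 0.035). PRPF19, a ubiquitin ligase of the spliceosome and the most abundant of the family, had 105 FPKM with thalidomide, against 111 FPKM with vehicle (−0.078 ± 0.028). PRPF4 (−0.035), PRPF6 (−0.026) and PRPF4B (−0.024) likewise had overlapping intervals. PRPF4 and PRPF3 sit in the same snRNP, and of the pair only PRPF3 had separate intervals. The family median of −0.056 lay −0.0085 from that of all genes, and it was 0.089 after rescaling to a common total.

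Splicing genes with other names were described by 8 lists, of which 141 genes passed the filter. The lists also hold some genes of other roles, such as WBSCR22. Over these, 52 ratios were above 0 (36.9%, beside 41% of all genes) and 89 below, with a median of −0.10. After rescaling to a common total, 81 of these were above 0 and 60 below, with a median of 0.036, beside 0.082 over all genes. At 1.5-fold as deposited, 3 were higher (PNISR, DDX42 and SNRNP35, 2.13% beside 0.953% of all genes) and 0 lower (beside 0.972%). SR-related proteins and SR kinases held 11 of 21 higher and 10 lower, with a median of 0.10 (0.15 relative to all genes), and 18 higher with a median of 0.22 after rescaling to a common total. PNISR, a serine- and arginine-rich nuclear protein, had 53.8 FPKM with thalidomide, against 34.2 FPKM with vehicle (0.64 ± 0.028). LUC7L3, a U1-associated protein, had 67.9 FPKM with thalidomide, against 50.1 FPKM with vehicle (0.43 ± 0.022), and ARGLU1 had 126 FPKM with thalidomide, against 144 FPKM with vehicle (−0.20 ± 0.021). SRRM1, a coactivator with SR proteins, had 0.31, PNN 0.23, LUC7L 0.24, TRA2A −0.13 and TRA2B −0.11.

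Genes of the proteins that build the snRNPs were mostly lower, also after rescaling to a common total (18 of 28 lower, median −0.075). The Sm, LSm and snRNP list held 4 of 28 higher and 24 lower, with a median of −0.22 (−0.17 relative to all genes). With mitochondrial and haemoglobin genes left out of the common total, 12 were higher and 16 lower (median −0.037). Over all genes 59% were below 0 as deposited. Many genes of this list are abundant, and that share was 80.3% from 30 to 100 FPKM (median −0.15). At 100 FPKM or more it was 90.9% (median −0.24). SNRPA1 of the U2 snRNP had 61.3 FPKM with thalidomide, against 90.1 FPKM with vehicle (−0.55 ± 0.039), and the Sm ring protein SNRPF had 153 FPKM with thalidomide, against 204 FPKM with vehicle (−0.42 ± 0.043). Against these stood SNRNP35 of the minor spliceosome, with 9.05 FPKM with thalidomide, against 5.21 FPKM with vehicle (0.69 ± 0.093), and LSM10, which serves histone mRNA processing, at 0.39 ± 0.16 with overlapping intervals. Branch point and acceptor site factors held 5 of 12 higher and 7 lower, from PHF5A and HTATSF1 (−0.30) to SUGP1 and GPATCH8 (both 0.33). Their median was −0.054, and 0.091 after rescaling, beside 0.082 over all genes.

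The PRP19 and catalytic step list held 11 of 24 higher and 13 lower (median −0.092, and 0.052 after rescaling, beside 0.082 over all genes). It also counts WBSCR22, which is not a splicing factor, and SYNCRIP, an hnRNP-type protein. The prolyl isomerase PPIL1 (−0.46) was lowest, with SYNCRIP (−0.28) next to it. PPIL3, another prolyl isomerase, was highest (0.30 ± 0.11, with overlapping intervals), with CWC25 (0.26) next to it. The annotated loci of PPIL3 and CLK1 overlap in part. The RNA helicases held 4 of 9 higher and 5 lower (median −0.015, and 0.11 after rescaling). DDX42, which binds SF3B1, had 24.3 FPKM with thalidomide, against 15.6 FPKM with vehicle (0.60 ± 0.032), and DHX8, which releases spliced mRNA, had 5.69 FPKM with thalidomide, against 4.78 FPKM with vehicle (0.21 ± 0.042). DDX5, the most abundant, had −0.22 and DHX15 had −0.21. These lists were drawn up with earlier results of these data known, so their directions are no independent evidence.

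**Figure D5:**
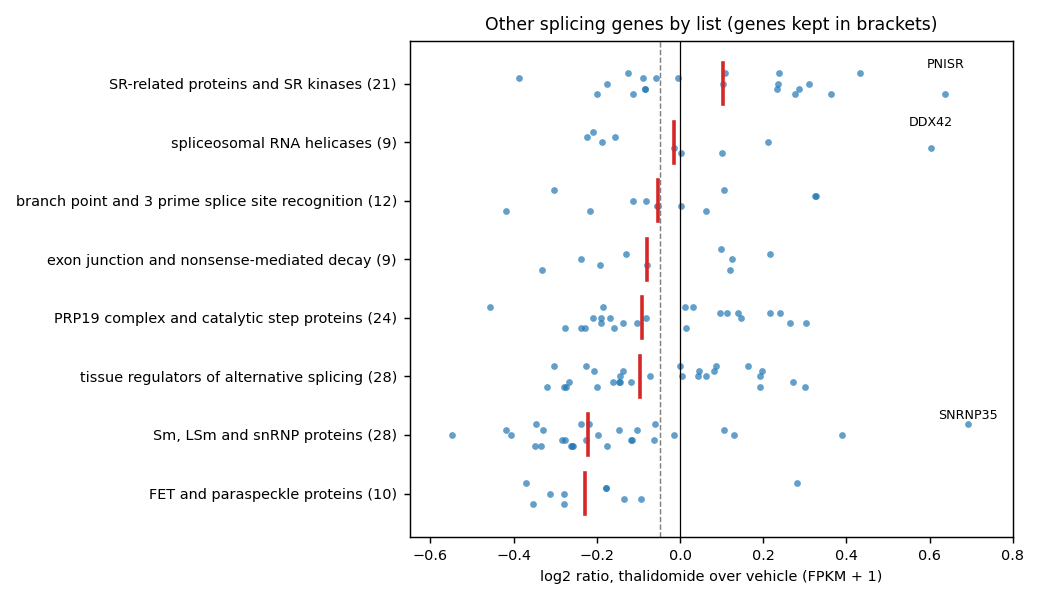
Log2 ratio of thalidomide over vehicle (x axis, FPKM + 1) for other splicing genes by list (y axis, genes kept in brackets), 1 point a gene, with the list median as a red bar and the median of all genes dashed. The SR-related list has the highest median (0.10), and the Sm, LSm and snRNP list (−0.22) and the FET and paraspeckle list (−0.23) the lowest.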

How the data were processed

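The 2 deposited tables give, per the file headers, an FPKM value for each of 17108 annotated genes with lower and upper confidence limits, made by the authors from 1 library each. Of tools, the submitters' processing notes list Cuffdiff, Cufflinks 2.2.1, STAR 2.4.2a and bcl2fastq, and as build galGal4, without their roles. Annotation release, strandedness and read length: not given in the sources used here. No count test fits FPKM, and with 1 library per treatment no test of any kind was possible.

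Rows sharing a symbol (131 symbols, none among the members) were summed, and genes with 1 FPKM or more in either library were kept. Errors took the distance from FPKM to the upper limit as 2 SD, and inferred fragments are the squared ratio of FPKM to that SD. File starts were read as counted from 0 and are printed from 1: spans under 1500 bases were multiples of 3 in 44% of loci on that reading and in 30.6% otherwise. Counts used 1.5-fold and non-overlapping limits. The members and lists were chosen with earlier results of these data known. Named members are those of families under 5 genes, the 3 highest and 3 lowest ratios and the 2 most abundant of larger families, the 12 highest and lowest of all, and those past or within 0.1 of the 1.5-fold limit. From each list the 2 highest and 2 lowest are named, and others in the text were named as well for their role. Of 186 list entries 149 matched, in part through older RefSeq symbols. Of the members, 1 is counted with its family but not reported here by name, and 65 carry the same symbol in RefSeq. The ratio and counts were run on simulated libraries drawn with counting error alone, so variation between samples was not tested. Alternatives were pseudocounts, filters, centring, rescaling, unsummed rows and leaving out short loci. Python 3.11.15, pandas 2.3.3 and numpy 2.4.6 were used.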

Additional observations from a re-analysis of the deposited data

How the results depend on the processing

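A filter of 5 FPKM and no filter moved no count of splicing genes by over 1.5 times and no median by over 0.073, the 95% error of a typical gene. Unsummed rows and leaving out loci under 300 bases could not change these values. No splicing gene here has several rows or spans under 300 bases. With a pseudocount of 0.1 FPKM, 2 genes (RBM5 and RBM6) were 1.5-fold higher in place of 1, and the share over all genes was 2.17%. Centring on the median of all genes turned the RBM median to 0.017. Rescaling to a common FPKM total gave 3 genes 1.5-fold higher (RBM5, RBM6 and CLK2), while the share over all genes rose to 2.21%. It gave 26 higher and 14 lower with separate intervals. The median of all members became 0.049, beside 0.082 over all genes. Family medians became 0.35 for CLK, 0.016 for SRSF, 0.12 for RBM, −0.031 for HNRNP, −0.084 for SF3A, −0.015 for SF3B and 0.089 for PRPF. Without mitochondrial and haemoglobin genes in the total, 5 genes were 1.5-fold higher (RBM5, RBM6, CLK2, SRSF5 and PRPF39), beside 2.78% of all genes. Then 33 higher and 9 lower genes had separate intervals, and the median of all members was 0.087, beside 0.12 over all genes. Family medians were 0.38 for CLK, 0.054 for SRSF, 0.15 for RBM, 0.0077 for HNRNP, −0.045 for SF3A, 0.023 for SF3B and 0.13 for PRPF. These shifts follow from the scaling itself, under which 30 and 32 members changed sign and the median of all genes moved by 0.13 and 0.16. In all settings run, 0 splicing genes were 1.5-fold lower, beside 0.458% to 1.79% of all genes. The share of all genes with separate intervals is not given for the rescaled values. No paired analysis was possible because each treatment has 1 library, and for the same reason no replicate could be left out. Depth limited RBM43 most, with 146 inferred fragments with thalidomide and 116 with vehicle.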

Other observations

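A list of FET and paraspeckle proteins, with further RNA-binding proteins such as DDX3X and ILF2, had 9 of 10 genes lower with thalidomide. The median log2 ratio was −0.23 (−0.078 with 7 lower after rescaling to a common total), and as deposited in those 9 the intervals were separate. Over all genes 59% were below 0 and 26.9% lower with separate intervals. The list is abundant, and of all genes 90.9% at 100 FPKM or more and 80.3% from 30 to 100 FPKM were below 0, with medians of −0.24 and −0.15. MATR3, a nuclear matrix protein, had 104 FPKM with thalidomide, against 135 FPKM with vehicle (−0.37 ± 0.014), and the helicase DDX3X had 88.3 FPKM with thalidomide, against 113 FPKM with vehicle (−0.35 ± 0.014). EWSR1 was at −0.093. The exception was TARDBP, the RNA-binding protein TDP-43, which limits its own mRNA, with 68.6 FPKM with thalidomide, against 56.2 FPKM with vehicle (0.28 ± 0.048).

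Tissue regulators of alternative splicing held 12 of 28 higher and 16 lower (median −0.10, and 0.040 after rescaling, beside 0.082 over all genes). CELF1 had 9.91 FPKM with thalidomide, against 7.87 FPKM with vehicle (0.30 ± 0.042) and TIA1, a stress granule protein, had 77.6 FPKM with thalidomide, against 64.2 FPKM with vehicle (0.27 ± 0.032). ELAVL4 (−0.32), also in the neural marker list, and ELAVL1 (−0.30) were lowest. Exon junction and nonsense-mediated decay genes held 4 of 9 higher and 5 lower (median −0.079, and 0.069 after rescaling, again beside 0.082). The exon junction genes EIF4A3 (−0.33) and RNPS1 (−0.24) were lowest, and the decay factors UPF3B (0.22) and UPF2 (0.12) highest. Decay factors were not all higher: SMG5 (−0.13) and UPF1 (−0.079) were lower with separate intervals. CIRBP, a cold-inducible RNA-binding protein whose gene RefSeq lists under the symbol RBM3, had 509 FPKM with thalidomide and 536 FPKM with vehicle (−0.074), with overlapping intervals.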
